A study of Homo sapiens with 94 samples.

Results

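The comparison described here is a difference of effects: the change of each gene against vehicle 24 h after a single oral dose of 200 mg/kg K-975, minus its change 3-6 h after the same dose. It draws on 29 of the 94 tumor libraries of the series, chosen by their labels as all vehicle and all 200 mg/kg tumors of the study sampled at 24 h and of the study sampled at 3-6 h. The question is which changes were already present early and which were seen at 24 h. All tumors were subcutaneous xenografts of the NCI-H226 line, which was derived from a human pleural mesothelioma and carries a deletion of NF2, grown in the right flank of female SCID mice and profiled by RNA-seq. Each library came from a separate mouse.

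At 3-6 h, 10 tumors had received vehicle (cage groups 2 and 3) and 10 had received K-975 at 200 mg/kg (cage groups 4 and 5), with 5 mice per cage group. Which of these cage groups were collected at 3 h or at 6 h is not given in the labels, so the cage groups of a treatment were averaged with equal weight. At 24 h, 4 tumors had received vehicle and 5 had received 200 mg/kg, each treatment being a single cage group. Vehicle and drug were both given by mouth at 20 mL/kg, in a mixture of ethanol, Solutol and glucose for injection. The control mice therefore received the same solvents as the treated mice, and all tumors share the NF2 deletion. Each study also held 5 untreated tumors, which are used here only as a second control. Time after the dose and study cannot be told apart in this design, nor can cage and treatment at 24 h, and SCID mice lack mature T and B cells.

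The Hippo pathway holds the co-activators YAP1 and WWTR1 (TAZ) out of the nucleus, and NF2 is one of its upstream activators. In the nucleus YAP1 and WWTR1 bind the TEAD transcription factors, which carry a lipid in a central pocket, and switch on genes of growth, matrix and the cytoskeleton. K-975 binds covalently in this pocket and blocks the palmitoylation of TEAD proteins. The pathway limits its own output, since several of its inhibitors, among them AMOTL2 and LATS2, are themselves targets of YAP1 and TEAD.

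The sequences of 4 promoters are shown first, as examples of genes described below. CCN2 and AMOTL2 are YAP1 and TEAD targets that were already lower at 3-6 h, and TMEM97 and MVD, genes of the sterol pathway, were called lower at 24 h and not at 3-6 h. The pairs are not shown to be separate classes. The late minus early difference was -0.82 for CCN2, just outside the threshold, and -0.79 for MVD, within it. Each sequence is the 250 bases before the RefSeq start (GRCh38.p14), written 5′ to 3′ on the strand of the gene. Capitals mark GGAATG, the core recognized by TEAD factors, or its reverse complement in the first pair of genes, and CCAAT or its reverse complement in the second pair.
CCN2 (chr6:131951373-131951622, minus strand): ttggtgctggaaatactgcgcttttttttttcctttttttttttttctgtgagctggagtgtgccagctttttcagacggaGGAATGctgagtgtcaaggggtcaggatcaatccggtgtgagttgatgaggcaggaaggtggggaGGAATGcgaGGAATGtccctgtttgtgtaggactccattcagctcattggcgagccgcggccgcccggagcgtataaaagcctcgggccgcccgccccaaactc
AMOTL2 (chr3:134374448-134374697, minus strand): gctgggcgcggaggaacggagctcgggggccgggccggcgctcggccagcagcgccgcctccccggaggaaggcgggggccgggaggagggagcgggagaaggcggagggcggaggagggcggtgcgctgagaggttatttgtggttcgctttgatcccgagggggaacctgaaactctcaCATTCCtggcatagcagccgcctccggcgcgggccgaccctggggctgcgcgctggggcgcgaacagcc
TMEM97 (chr17:28318950-28319199, plus strand): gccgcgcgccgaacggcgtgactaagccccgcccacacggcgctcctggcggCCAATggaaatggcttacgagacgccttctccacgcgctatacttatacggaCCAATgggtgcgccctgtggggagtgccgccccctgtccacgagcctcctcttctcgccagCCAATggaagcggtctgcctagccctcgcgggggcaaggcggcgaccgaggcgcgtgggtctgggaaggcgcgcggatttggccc
MVD (chr16:88663092-88663341, minus strand): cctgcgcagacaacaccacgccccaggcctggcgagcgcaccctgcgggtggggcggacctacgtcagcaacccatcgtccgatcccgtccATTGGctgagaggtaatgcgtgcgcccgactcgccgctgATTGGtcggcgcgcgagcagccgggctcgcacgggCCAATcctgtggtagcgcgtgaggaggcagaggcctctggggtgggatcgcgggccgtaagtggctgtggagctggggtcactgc
The CCN2 window held 3 matches to the TEAD core, beginning 169, 104 and 95 bases before the start. The AMOTL2 window shown, 1 of 2 for this gene and the one of the pair with a match, held 1 match at 69 bases. The TMEM97 window held CCAAT at 198, 146 and 85 bases, and the MVD window at 159, 120 and 85 bases. CCN1 had no entry in the promoter table. Over all 35116 promoter windows of the table, 11.9% held the TEAD core and 32% held CCAAT on either strand, and matches of both motifs can share bases. Of the 18 windows of 16 YAP/TAZ targets, 8 (44.4%) held the TEAD core. CCAAT was found in 22 of 32 windows (68.8%) of genes of the G1/S phase and DNA replication, in 22 of 26 (84.6%) of genes of G2/M and mitosis, and in 17 of 22 (77.3%) of genes of sterol synthesis. In the same order, these lists held the TEAD core in 2 (6.25%), 3 (11.5%) and 4 (18.2%) of their windows. YAP/TAZ targets held CCAAT in 3 of 18 windows (16.7%). Of the 70 windows of genes with a called difference below 0, 6 (8.57%) held the TEAD core and 35 (50%) held CCAAT. Of the 88 windows of genes with a difference above 0, 6 (6.82%) held the TEAD core and 27 (30.7%) held CCAAT. Over all genes tested, the shares were 9.98% and 33%. A match is a match of letters in this window and no evidence of binding.

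FPKM values (fragments scaled to transcript length and library size) hold no read counts, so depth is unknown. Each library had between 11345 and 11646 genes that reached 1 FPKM, and its 10 most abundant genes held 15.5% to 17.7% of the summed values. No pair of libraries reached a correlation above 0.978 on the log2 scale, and none was treated as a repeat of another. The 3 libraries of the series with fewer than 10000 such genes are not among the 29. Markers of mesothelial cells were present, with 13 of 14 tested and a summed FPKM of 3240 to 5781. Markers of erythrocytes, adipocytes and muscle were below 1 FPKM in every library (8 of 8). The immune markers CD3E and MS4A1, which define T and B cells, and the endothelial marker CLDN5 were at 0 throughout. Other members of these 2 lists were present. These are values of human genes in tumors grown in mice, so they cannot be read as amounts of host cells. With vehicle at 3-6 h the immune list summed to 47.7 to 269 FPKM and the endothelial list to 51.9 to 103 FPKM.

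Effects were fitted with limma on log2(FPKM + 1) in 1 model of the 29 libraries, and a gene is said to be called at a Benjamini-Hochberg adjusted p below 0.05. The added 1 shrinks the fold change of low genes, and the p-values measure the spread between these tumors. At 24 h, 403 of 12412 genes tested were higher with 200 mg/kg than with vehicle (3.25%) and 376 were lower (3.03%). At 3-6 h, 4 genes were lower (0.0322%) and 0 were higher (0%), whereas 455 genes were higher and 415 lower at an unadjusted p below 0.05. The late minus early effect, tested as 1 contrast, was above 0 in 63 called genes (0.508%) and below 0 in 67 (0.54%). After centring each library on its median, 324 of 800 genes were higher at 24 h and 48 of 136 differences were above 0, so the share of higher genes depends on the scaling. The standard error of the early effect was the smaller, with a median over genes of 0.126, against 0.189 for the late effect and 0.227 for their difference.

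The early libraries, which are other animals, were then read for the genes called at 24 h. The 376 genes lower at 24 h had a median late effect of -0.61 on the log2 scale and a median early effect of -0.03. Their early effect was below 0 in 226 genes (60.1%), compared with 47.6% of all genes tested. Of the 403 genes higher at 24 h, with a median late effect of 0.68, the early effect was above 0 in 270, compared with 6500 of all 12412 genes, and the median early effect was 0.05. For comparison, the median early effect of all genes was 0.01. Of the 376 lower genes, 65 (17.3%) had a called late minus early difference, and of the 403 higher genes 60 (14.9%) had one. For the remaining genes called at 24 h a different effect at 3-6 h was not shown, and neither was an equal one. Of all 67 genes with a called difference below 0, the early effect was above 0 in 51. Of the 63 with a difference above 0, it was below 0 in 49. An early effect of opposite sign adds to the difference, and choosing genes by the difference favours such signs. Genes are not independent of each other, and no p-value was computed for these shares.

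**Figure D1:**
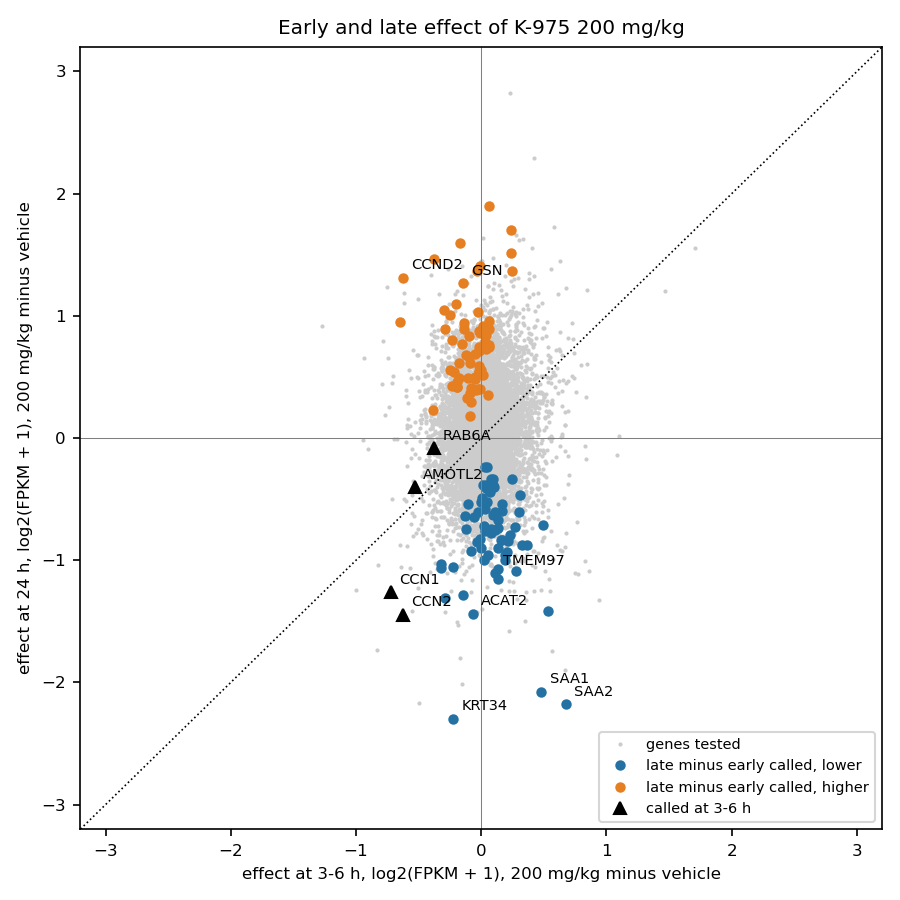
Effect of 200 mg/kg at 3-6 h (horizontal axis) and at 24 h (vertical axis), both as 200 mg/kg minus vehicle on log2(FPKM + 1), for 12412 genes (grey points). Blue and orange points are the 67 and 63 genes whose late minus early difference was called, triangles are the 4 genes called at 3-6 h, and the dotted line marks equal effects. CCN1 and CCN2 lie low at both times, whereas the blue and orange points spread more along the vertical axis than along the horizontal axis. Their early effects ran from -0.32 to 0.68 (blue) and from -0.65 to 0.24 (orange).

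Only CCN1 and CCN2 were called at both times. CCN1 (CYR61; ENSG00000142871.16, chr1:85580761-85583962 of GRCh38) and CCN2 (CTGF; ENSG00000118523.5, chr6:131948176-131951373) encode secreted matricellular proteins and are classical targets of YAP1 and TEAD. At 3-6 h CCN1 ranged from 148 to 271 FPKM with vehicle (median 204, n = 10) and from 83.2 to 194.5 FPKM with 200 mg/kg (median 119, n = 10). The groups overlapped, but 8 of 10 treated tumors lay below every vehicle tumor. At 24 h CCN1 was 268, 268, 263 and 196 FPKM with vehicle and 71.9, 167, 94.9, 98.3 and 99.9 FPKM with 200 mg/kg, without overlap. Its effect was -0.72 at 3-6 h (SE 0.14, limma adjusted p = 0.0437) and -1.26 at 24 h (SE 0.20, adjusted p = 0.000572). The difference of -0.54 had a 95% interval of -1.04 to -0.04 and was not called (adjusted p = 0.27). In a whole tumor, fewer cells that express a gene and less RNA per cell cannot be told apart.

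CCN2 showed the same order of groups. At 3-6 h it ranged from 7.70 to 12.6 FPKM with vehicle (median 9.63) and from 4.41 to 8.28 FPKM with 200 mg/kg (median 5.64), and 8 of 10 treated tumors were below all vehicle tumors. At 24 h it was 13.1, 12.9, 10.9 and 16.0 FPKM with vehicle and 2.38, 5.72, 4.37, 4.94 and 4.20 FPKM with 200 mg/kg. The lowest vehicle tumor was thus above the highest treated tumor. The effect was -0.63 at 3-6 h (SE 0.12, limma adjusted p = 0.0437) and -1.44 at 24 h (SE 0.18, adjusted p = 2.75e-05). The difference of -0.82 (95% interval -1.26 to -0.38) lay just outside the threshold (adjusted p = 0.0564). Both treatments had a part in it, since vehicle tumors were 0.40 higher at 24 h than at 3-6 h and treated tumors 0.42 lower.

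AMOTL2 and RAB6A were the other genes called at 3-6 h. AMOTL2 (ENSG00000114019.14, chr3:134355874-134375479) encodes a motin that binds YAP1 and acts as a negative feedback. It ranged from 22.3 to 35.6 FPKM with vehicle at 3-6 h (median 27.5) and from 14.0 to 28.5 FPKM with 200 mg/kg (median 19.1), with 8 of 10 treated tumors below all vehicle tumors. The values at 24 h were 30.5, 25.7, 29.0 and 25.0 FPKM with vehicle and 21.0, 22.4, 21.5, 19.3 and 18.8 FPKM with 200 mg/kg, again without overlap. The effect was -0.53 early (limma adjusted p = 0.014) and -0.40 late (adjusted p = 0.0608), and the difference of 0.13 had an interval of -0.19 to 0.45. It is the gene with the lowest p at 3-6 h, and its early call held in 27 of 29 fits that left out 1 library. RAB6A (ENSG00000175582.19, chr11:73675638-73761137), a small GTPase of Golgi traffic, had an early effect of -0.38 (adjusted p = 0.0437) and a late effect of -0.08 (adjusted p = 0.706). Its mean at 3-6 h was 66.2 ± 4.83 FPKM (SD, n = 10) with vehicle, 51.2 ± 8.10 with 200 mg/kg (n = 10) and 54.3 ± 11.0 in untreated tumors (n = 5). Set against untreated tumors, its early effect was only -0.08.

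The early calls were close to the threshold. When 1 library at a time was left out, the early call was kept in 8 of 29 fits by CCN1, in 7 by CCN2 and in 6 by RAB6A, and the number of genes called at 3-6 h lay between 0 and 9. By cage group, the early effect of CCN1 was -0.59 in cage group 4 and -0.86 in cage group 5, against the mean of both vehicle cage groups. The values were -0.54 and -0.71 for CCN2, and -0.34 and -0.72 for AMOTL2. Both cage groups of treated tumors lay below vehicle for all 3 genes.

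**Figure D2:**
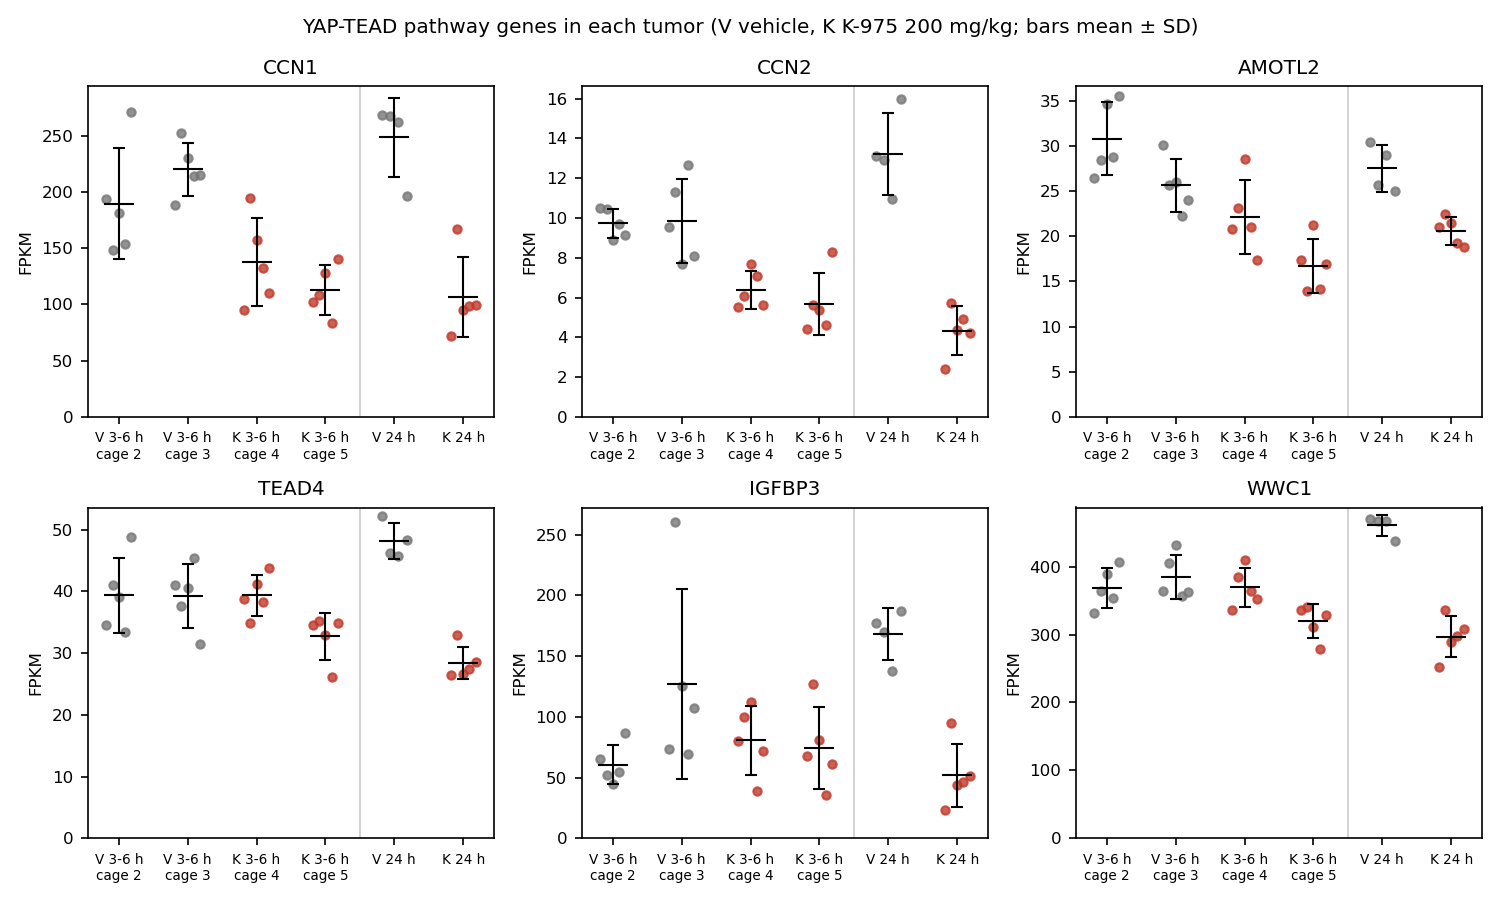
FPKM of 6 genes of the pathway in each tumor, by cage group at 3-6 h (left of the line) and at 24 h (right). Grey points are vehicle (V) and red points 200 mg/kg K-975 (K), with mean ± SD of the cage group as bars. For all 6 genes the ranges of the treatments overlap at 3-6 h and are apart at 24 h. CCN1, CCN2 and AMOTL2 were called lower at 3-6 h, and TEAD4, IGFBP3 and WWC1 were not. AMOTL2 was not called at 24 h. The late minus early difference was called for TEAD4 and WWC1 only.

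Among the TEAD factors and their co-activators, TEAD4 was the 1 gene of 8 tested whose effect differed between the times. TEAD4 (ENSG00000197905.8, chr12:2959330-3040673) ranged from 31.5 to 48.8 FPKM with vehicle at 3-6 h (median 39.8) and from 26.1 to 43.8 FPKM with 200 mg/kg (median 35.1), groups that overlapped widely. In the 24 h study it was 52.3, 46.2, 45.8 and 48.4 FPKM with vehicle and 26.5, 32.9, 26.6, 27.4 and 28.6 FPKM with 200 mg/kg. No treated tumor reached the range of vehicle. The effect was -0.12 at 3-6 h and -0.74 at 24 h (limma adjusted p = 0.000279), and the difference of -0.62 was called (95% interval -0.90 to -0.35, adjusted p = 0.026). The call was kept in 24 of 29 fits without 1 library, and was lost against untreated tumors (-0.33, adjusted p = 0.232). The difference was small for TEAD1 (0.05, interval -0.21 to 0.32), TEAD3 (-0.07, -0.45 to 0.31) and YAP1 (-0.02, -0.25 to 0.20). For TEAD2 (0.34, -0.26 to 0.94) and WWTR1 (-0.39, -0.93 to 0.15) the intervals were wide. The co-factors VGLL3 (0.11) and VGLL4 (0.12) completed the list, none of the 7 other than TEAD4 being called at either time.

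Of 22 YAP/TAZ targets tested, 6 were called at 24 h, all lower, 3 at 3-6 h, all lower, and 0 in the late minus early contrast. Their median effect was -0.13 at 3-6 h, -0.46 at 24 h and -0.17 for the difference, against 0.01, 0.03 and 0.03 over all genes. From the 3-6 h to the 24 h study, the median change of these targets was 0.17 in vehicle and -0.05 in treated tumors. In untreated tumors their mean log2 level was likewise higher in the 24 h study (5.63) than in the 3-6 h study (5.41). A deeper effect of the drug at 24 h is therefore not shown for this list. The effect was negative in 18 of the 22 at 3-6 h and in 17 at 24 h. Over all genes tested, 47.6% had a negative effect at 3-6 h. The shares called over all genes were 3.03% lower at 24 h, 0.0322% lower at 3-6 h and 0.54% below 0 in the contrast. These shares are the background also for the counts of the later lists. Beside CCN1 and CCN2, the targets lower at 24 h were IGFBP3 (-1.80), F3 (-1.43), AXL (-0.53) and CRIM1 (-0.28). IGFBP3, which binds insulin-like growth factors, ranged from 44.8 to 261 FPKM with vehicle at 3-6 h (median 71.6) and from 35.9 to 127 FPKM with 200 mg/kg (median 75.8). Later, at 24 h, it was 177, 170, 138 and 187 FPKM with vehicle and 23.7, 94.7, 44.2, 46.2 and 51.1 FPKM with 200 mg/kg. The groups overlapped early and were apart late, yet the difference of -1.63 was not called (interval -2.51 to -0.74, limma adjusted p = 0.0572), though it was against untreated tumors (-1.89, adjusted p = 0.0356). For F3, the initiator of coagulation, the difference was -1.14 (-2.04 to -0.24), for the receptor kinase AXL it was -0.38 (-0.68 to -0.09), and for CRIM1 it was -0.16 (-0.34 to 0.01), with adjusted p of 0.187, 0.174 and 0.353. The F3 call at 24 h was lost without replicate 1 of the 200 mg/kg group (adjusted p = 0.0793), and that of CRIM1 without vehicle replicate 4 (0.0802).

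The other targets were not called at either time, AMOTL2 excepted. ANKRD1, a sarcomeric and nuclear stretch-response protein whose promoter window held 2 TEAD cores, had effects of -0.56 early and -0.71 late (limma adjusted p = 0.23 and 0.0555). NUAK2 had -0.42 and -0.35, LATS2 -0.34 and -0.51, and FJX1 -0.35 and -0.60. For these 4 genes the late minus early difference lay between -0.25 and 0.07. NT5E, the ectoenzyme CD73, had effects of 0.07 early and -1.04 late (adjusted p = 0.0502), with a difference of -1.11 (interval -1.90 to -0.32, adjusted p = 0.144). GADD45A had -0.11 and -0.56, TGFB2 -0.12 and -0.60, and CCDC80 0.06 and -0.13. MYOF, DOCK5, FOXF2, ASAP1, PTPN14, ARHGEF17 and RBMS3 had late effects between -0.13 and 0.39.

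Upstream of YAP1, 3 of 20 tested genes of the Hippo pathway and its feedback were lower at 24 h, and 1 was called in the contrast. This was WWC1 (KIBRA; ENSG00000113645.14, chr5:168291651-168472303), a scaffold that activates the LATS kinases and is itself listed among the study's positive effectors. At 3-6 h it ranged from 332 to 432 FPKM with vehicle (median 364) and from 279 to 409 FPKM with 200 mg/kg (median 339). At 24 h it was 470, 468, 468 and 438 FPKM with vehicle and 253, 336, 290, 299 and 308 FPKM with 200 mg/kg, without overlap. Every vehicle tumor at 24 h lay above every vehicle tumor at 3-6 h, whereas the treated tumors of the studies overlapped. The effect was -0.13 early and -0.64 late (limma adjusted p = 2.75e-05), with a difference of -0.51 (interval -0.70 to -0.31, adjusted p = 0.0133). The call was kept in 28 of 29 fits without 1 library, the exception being vehicle replicate 2 at 24 h (adjusted p = 0.0547), and against untreated tumors (-0.42, adjusted p = 0.0356).

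The study derived lists of positive and negative effectors of YAP1 and TEAD from public datasets of other experiments. Of 233 positive effectors tested, 55 were lower and 1 was higher at 24 h, 2 were lower at 3-6 h (CCN1 and CCN2), and 15 had a late minus early difference below 0. Their median effect was -0.04 early and -0.32 late. Of 185 negative effectors, 13 were higher at 24 h, 0 were called at 3-6 h and 3 had a difference above 0, with medians of 0.08 early and 0.19 late. The positive effectors with a called difference include genes of replication and of sterol synthesis, which are described next. The 3 negative effectors were GSN, MGST3, a microsomal glutathione transferase (difference 0.67), and VPS52, a subunit of a tethering complex of the Golgi (0.53).

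Genes of the cell cycle were read as a pair of lists. Over all genes tested, 3.03% were lower at 24 h, 0.0322% were lower at 3-6 h and 0.54% had a called difference below 0. The absence of calls at 3-6 h in a list of this size is near that share. Of 27 genes of G1/S and DNA replication, 14 were lower and 0 higher at 24 h, 0 were called at 3-6 h, and 4 had a called difference below 0. The median effect was 0.04 early and -0.54 late, and the difference was negative in 25 of 27. The 4 were UHRF1, which maintains DNA methylation behind the fork (-1.02), RRM2, a subunit of ribonucleotide reductase (-1.15), MCM2, a subunit of the replicative helicase (-0.81), and MCM10, a replication initiation factor (-0.99). RRM2 (ENSG00000171848.13, chr2:10122328-10131419) ranged from 15.0 to 35.4 FPKM with vehicle (median 21.6) and from 20.7 to 32.1 FPKM with 200 mg/kg (median 25.5) at 3-6 h. The values at 24 h were 40.3, 41.2, 24.8 and 20.6 FPKM with vehicle and 9.96, 24.5, 15.3, 17.7 and 12.1 FPKM with 200 mg/kg. The highest treated tumor, replicate 2, lay within the range of vehicle. For UHRF1 the effect was 0.02 early and -1.001 late (limma adjusted p = 0.0021), with no overlap of treated and vehicle tumors at 24 h and a called difference (adjusted p = 0.026).

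Of 27 genes of G2/M and mitosis, 4 were lower at 24 h (CCNA2, AURKB, KIF23 and FOXM1), and 0 were called early or in the contrast. Their median effect was 0.04 early and -0.43 late. Among the 12 lowest differences of all genes were 2 further genes of chromosome segregation. CENPM, a centromere protein, had effects of 0.27 early and -1.09 late, a difference of -1.36 (limma adjusted p = 0.0345). MAD2L1, of the spindle checkpoint, had 0.37 and -0.87, a difference of -1.24 (adjusted p = 0.0261). The histone genes H3C12 (-1.95) and H2AC16 (-1.29) were also among the 12. Replication-dependent histone genes are near-identical copies and their messages are mostly not polyadenylated, so the counting may divide reads between copies and these values are uncertain. Without replicate 1 of the 200 mg/kg group at 24 h the adjusted p was 0.0745 for UHRF1 and 0.0839 for MCM2, and without vehicle replicate 2 at 24 h it was 0.0998 for RRM2 and 0.0861 for CENPM. Across the 29 fits without 1 library, the call was kept in 22 for RRM2, 24 for UHRF1, 23 for MCM2 and 23 for CENPM. Against untreated tumors the differences were -0.67, -0.72, -0.50 and -0.85 and none of the 4 was called.

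Of 23 sterol genes tested, 11 were lower and 1 was higher (TM7SF2) at 24 h, 0 were called at 3-6 h, and 4 had a called difference below 0. The median effect was 0.03 early and -0.42 late. ACAT2 (ENSG00000120437.8, chr6:159760328-159779055), the cytosolic thiolase that makes acetoacetyl-CoA for the mevalonate pathway, ranged from 41.4 to 88.3 FPKM with vehicle (median 65.5) and from 44.7 to 88.7 FPKM with 200 mg/kg (median 57.3) at 3-6 h, the same range. In the 24 h study it was 72.7, 84.6, 105 and 72.4 FPKM with vehicle and 23.3, 41.5, 25.7, 34.8 and 27.8 FPKM with 200 mg/kg. Every treated tumor lay well below every vehicle tumor. Its effect was -0.07 early and -1.44 late (limma adjusted p = 0.000152), a difference of -1.37 (SE 0.24, adjusted p = 0.0114). The call was kept in all 29 fits without 1 library and against untreated tumors (-0.99, adjusted p = 0.0493).

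TMEM97 (ENSG00000109084.13, chr17:28319095-28328685), a sterol-regulated membrane protein that binds NPC1, was 41.8 to 80.3 FPKM with vehicle (median 55.6) and 40.3 to 72.3 FPKM with 200 mg/kg (median 63.4) at 3-6 h. Later, at 24 h, it was 86.8, 72.0, 64.6 and 95.3 FPKM with vehicle and 45.9, 22.7, 42.4, 37.5 and 37.0 FPKM with 200 mg/kg. The groups overlapped early and not late, and the difference of -1.21 was called (interval -1.65 to -0.78, limma adjusted p = 0.00933), also in all 29 fits without 1 library. Against untreated tumors it was -0.74 (adjusted p = 0.125).

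The other sterol genes with a called difference were MVD, the mevalonate diphosphate decarboxylase, CYP51A1, the lanosterol demethylase, and FDPS, the farnesyl diphosphate synthase. Their late minus early differences were -0.79, -0.73 and -1.02. MVD, with its 3 CCAAT boxes shown above, was 146 to 161 FPKM in the 4 vehicle tumors at 24 h and 71.8 to 101 FPKM in the 5 treated ones, and its mean at 3-6 h was 150 ± 26.7 with vehicle and 152 ± 21.1 with 200 mg/kg (SD, n = 10 each). Of 13 genes of fatty acid synthesis, ACLY (-0.52) and FASN (-0.82), which make cytosolic acetyl-CoA and palmitate, had a called difference, and both were lower at 24 h. FASN had effects of -0.03 early and -0.85 late. Against untreated tumors the differences were -0.63 for MVD, -0.73 for FDPS, -0.35 for ACLY and -0.48 for FASN, and these 4 were not called, whereas CYP51A1 was (-0.69, limma adjusted p = 0.046). For MVD, CYP51A1, ACLY and FASN the vehicle tumors were 0.05 to 0.15 higher at 24 h than at 3-6 h, and the treated tumors were 0.46 to 0.74 lower at 24 h.

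Of 18 actin and SRF targets, 4 were lower at 24 h, 0 at 3-6 h, and ACTN1 (-0.43) and TAGLN (-0.74) had a called difference. ACTN1 cross-links actin filaments, and it was called also against untreated tumors (-0.47, limma adjusted p = 0.0312). TAGLN was not (-0.55, adjusted p = 0.149). Across the 29 fits without 1 library, the call was kept in 12 for ACTN1 and in 11 for TAGLN. Of 18 matrix genes tested, THBS1, encoding thrombospondin, had effects of -0.29 early and -1.31 late, a difference of -1.02 (adjusted p = 0.0332). Of 13 integrins, ITGA3 had a difference of -0.44. The fibrillin FBN2 was among the 12 lowest of all genes (-1.20, adjusted p = 0.0235). Against untreated tumors the differences were -0.77 for THBS1, -0.42 for ITGA3 and -0.81 for FBN2, and none of the 3 was called. The ITGA3 call was kept in 9 of the 29 fits without 1 library.

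The leading genes with a difference above 0 have varied roles. GSN (gelsolin; ENSG00000148180.19, chr9:121207794-121332843), which severs and caps actin filaments, was 7.77 to 14.0 FPKM with vehicle (median 10.0) and 7.13 to 12.8 FPKM with 200 mg/kg (median 8.39) at 3-6 h. At 24 h it was 7.48, 6.84, 4.01 and 5.74 FPKM with vehicle and 22.1, 8.78, 17.6, 17.8 and 14.8 FPKM with 200 mg/kg. All 5 treated tumors were above all vehicle tumors, replicate 2 the least so. The effect was -0.14 early and 1.27 late (limma adjusted p = 0.000572), a difference of 1.41 (interval 0.91 to 1.92, adjusted p = 0.00933). The call was kept in all 29 fits without 1 library and against untreated tumors (1.09, adjusted p = 0.0356). Vehicle tumors were 0.69 lower at 24 h than at 3-6 h and treated tumors 0.73 higher.

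KLHL4, a kelch-like protein, had effects of 0.23 early and 1.70 late (limma adjusted p = 5.27e-05), a difference of 1.47 (adjusted p = 0.0126). CARNS1, the carnosine synthase, had 0.24 and 1.51, a difference of 1.27 (adjusted p = 0.026). Both were called also against untreated tumors (1.31 and 1.11, adjusted p = 0.029 and 0.0493). CA11, a carbonic anhydrase-related protein, had a difference of 1.84, PAFAH2, a phospholipase of oxidized lipids, 1.77, HECW1, a ubiquitin ligase, 1.84, and AMY2B, an amylase with near-identical copies whose reads cannot be told apart with certainty, 1.42. SPON2, a spondin of the matrix, had 1.40, NINL, a centrosomal protein, 1.34, ANXA9, an annexin, 1.30, and PCLO, a presynaptic scaffold, 1.60. Of these 8 genes none was called against untreated tumors, where adjusted p lay between 0.0668 and 0.385. PAFAH2, HECW1, AMY2B, NINL, ANXA9 and PCLO had a mean below 5 FPKM over the 29 libraries, where the added 1 weighs most. Leaving out the highest vehicle tumor at 24 h, HECW1 reached at most 0.85 FPKM and PCLO at most 1.12 FPKM in that group. The size of these differences is therefore uncertain.

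The difference of effects equals the change of the treated tumors between the studies minus that of the vehicle tumors, so both were examined. Among the 67 genes with a difference below 0, the treated tumors moved more in 50 and the vehicle tumors more in 17. Among the 63 genes with a difference above 0, the vehicle tumors moved more in 42 and the treated tumors in 21. The median changes were 0.26 in vehicle and -0.55 in treated tumors for the former, and -0.42 in vehicle and 0.33 in treated tumors for the latter. Thus most of the positive differences went with vehicle tumors that were lower at 24 h than at 3-6 h.

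CCND2, encoding cyclin D2, had the highest difference of all called genes and was of this kind. It ranged from 6.51 to 38.8 FPKM with vehicle (median 24.1) and from 7.69 to 22.7 FPKM with 200 mg/kg (median 12.5) at 3-6 h. The values at 24 h were 5.77, 4.79, 4.26 and 7.24 FPKM with vehicle and 16.8, 6.55, 18.5, 19.6 and 18.2 FPKM with 200 mg/kg. Replicate 2 of the treated group lay among the vehicle tumors. The difference was 1.94 (limma adjusted p = 0.0366), made of a change of -1.78 in vehicle and 0.16 in treated tumors. Untreated tumors changed by -0.81, and with these as the control the difference was 0.97 (adjusted p = 0.361).

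The serum amyloid genes SAA1 and SAA2, acute-phase proteins driven by inflammatory cytokines, had the lowest differences. SAA1 (ENSG00000173432.10, chr11:18266174-18269977) ranged from 439 to 2271 FPKM with vehicle (median 696) and from 384 to 1895 FPKM with 200 mg/kg (median 1417) at 3-6 h. In the 24 h study it was 2450, 2781, 2089 and 3060 FPKM with vehicle and 261, 930, 631, 645 and 843 FPKM with 200 mg/kg. Of the vehicle tumors at 24 h, 3 of 4 were above every tumor at 3-6 h, and the treated tumors were below all 4. The difference was -2.56 for SAA1 (limma adjusted p = 0.026) and -2.85 for SAA2 (adjusted p = 0.0391), with changes of 1.64 and 1.99 in vehicle and -0.92 and -0.86 in treated tumors. Untreated tumors were 1.54 and 1.85 higher in the 24 h study, and against them the difference of SAA1 was -2.46 (adjusted p = 0.0465) and that of SAA2 -2.71 (adjusted p = 0.0757). The 2 genes are near-identical copies, and reads of one may have been counted for the other. KRT34, a hair keratin, had a difference of -2.08 (adjusted p = 0.0419), from a change of 1.44 in vehicle, 1.38 in untreated and -0.64 in treated tumors. KRT6A had a difference of -1.20 and RTF1, a subunit of the PAF1 complex, -1.21, and RTF1 was not called at either time by itself (late effect -0.71, adjusted p = 0.0869). Against untreated tumors the differences were -2.01 for KRT34, -0.55 for KRT6A and -0.49 for RTF1, and none of the 3 was called.

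**Figure D3:**
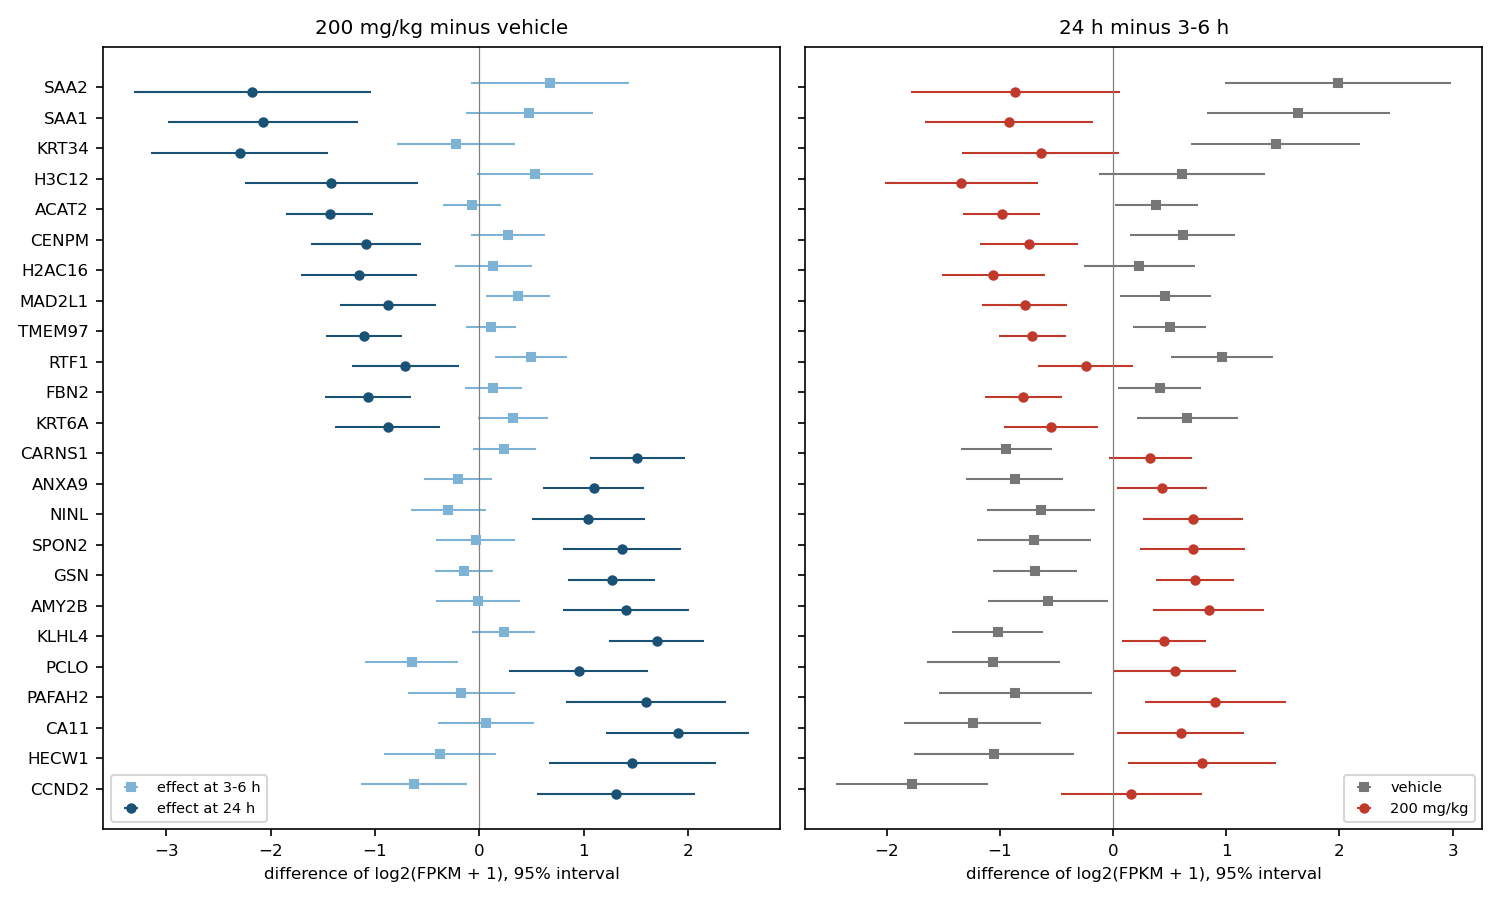
The 12 lowest and 12 highest called late minus early differences, with 95% intervals from limma on log2(FPKM + 1). The left panel gives the effect of 200 mg/kg against vehicle at 3-6 h (light squares) and at 24 h (dark circles), and the right panel the change from 3-6 h to 24 h in vehicle (grey squares) and in treated tumors (red circles). Early effects lie closer to 0 than late ones for all 24 genes, and for CCND2, SAA1 and SAA2 the larger change is that of the vehicle tumors.

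**Figure D4:**
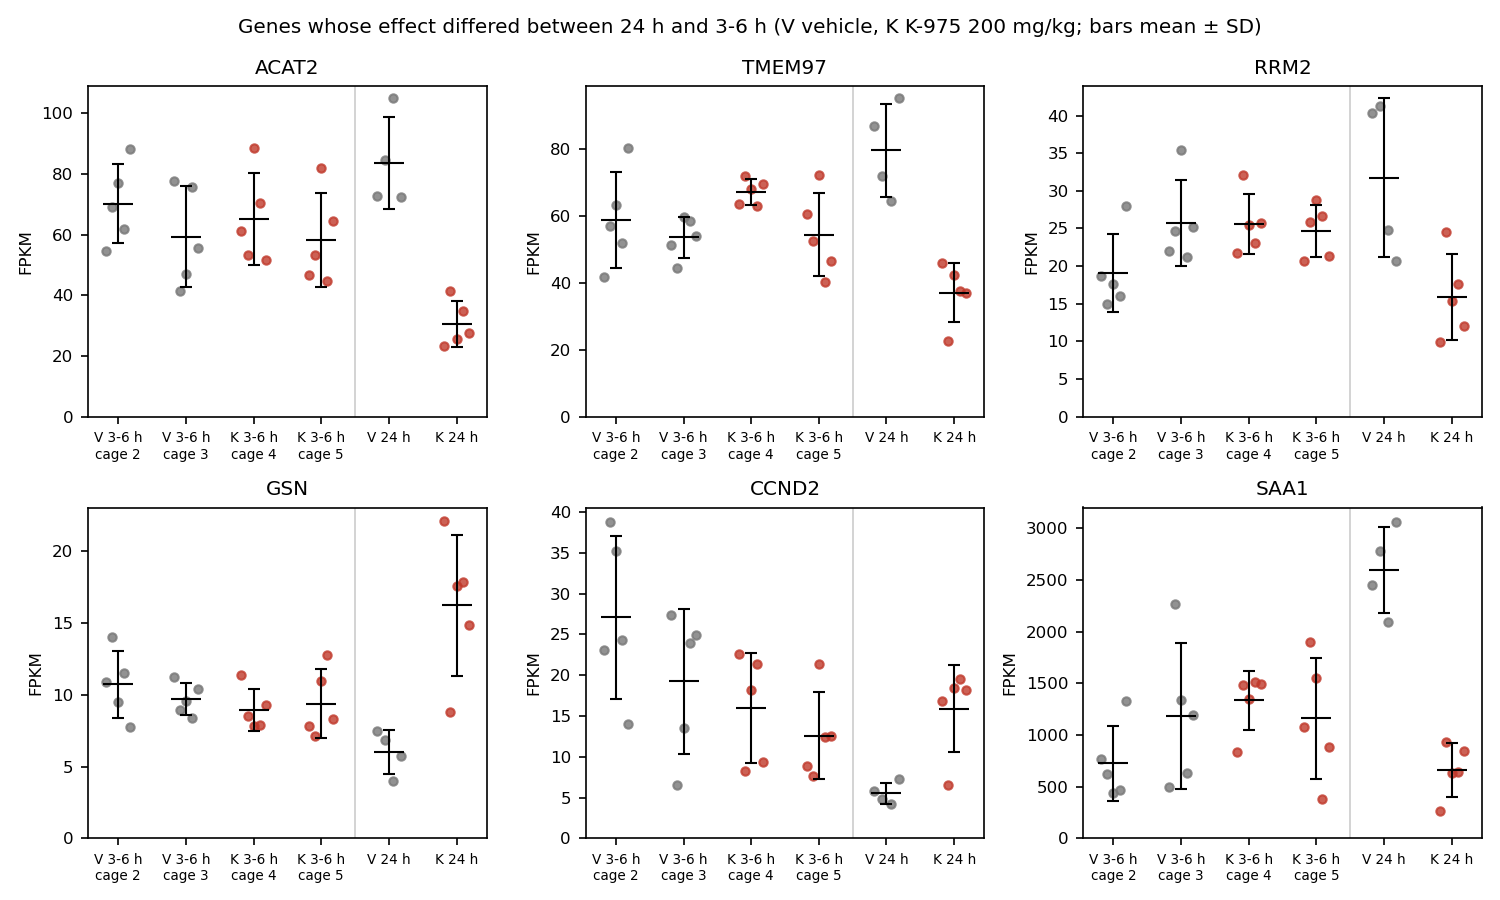
FPKM in each tumor for 6 genes with a called late minus early difference, by cage group at 3-6 h (left of the line) and at 24 h (right), with mean ± SD. ACAT2, TMEM97 and RRM2 are lowest in treated tumors at 24 h, GSN is highest there, and CCND2 and SAA1 differ mainly in the vehicle tumors at 24 h.

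The remaining lists were described by their counts and medians. Over all genes tested, 3.25% were higher and 3.03% lower at 24 h, and 0.508% and 0.54% had a called difference above and below 0. A count of 0 or 1 in a list of this size is near these shares. Inflammatory cytokines had the widest shift, a median effect of 0.38 early and -0.68 late over 16 genes, with 0 called at either time or in the contrast, and their vehicle tumors were 1.30 higher at 24 h by the median. In untreated tumors the mean log2 level of this list was likewise higher in the 24 h study (4.94) than in the 3-6 h study (3.63). Of 19 genes of hypoxia and glycolysis, 6 were lower at 24 h and ENO1, the glycolytic enolase, had a called difference (-0.40). Their median effect was -0.12 early and -0.42 late, and vehicle tumors were higher by 0.30 at 24 h. In untreated tumors the mean log2 level of these genes was 5.855 in the 3-6 h study and 6.619 in the 24 h study. Of 17 genes of TGF-beta and activin signaling, 3 were lower at 24 h, among them the activin antagonist FST (-2.01), and 0 were called in the contrast. The AP-1 and EGR immediate early genes (17 tested), MAPK output (14), the unfolded protein response (19), p53 targets (14), the BCL2 family (14), clock genes (17) and interferon response (26) held 0 genes called at either time or in the contrast. Of 9 acute-phase genes 3 were lower at 24 h, of 13 keratins 1 was higher and 2 were lower, of 16 heat shock genes 1 was lower, and of 12 NRF2 targets and of 14 genes of junctions and EMT 2 each were higher. Of these, SAA1, SAA2, KRT34 and KRT6A were called in the contrast. Across all 12412 genes, 2656, 870 and 1984 had a limma p below 0.05 before adjustment late, early and in the contrast.

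Markers of cell types were read beside these results. The genes measured are human, whereas the host cells in these xenografts are those of the mouse, and the treatment of mouse reads is not given. The immune, endothelial and fibroblast sums therefore cannot be read as amounts of host cells. The summed FPKM of mesothelial markers was 3395 to 3541 in vehicle and 3814 to 5187 in treated tumors at 24 h, which did not overlap, and 3240 to 4878 and 3779 to 5781 at 3-6 h, which did. MSLN (0.40), CALB2 (0.39) and KRT19 (0.32) were higher at 24 h, 5 of the 13 markers had a late effect below 0, and 0 of the 13 were called in the contrast. The mean log2 level of the 13 markers overlapped at 24 h, with 6.64 to 6.90 in vehicle and 6.61 to 7.44 in treated tumors. Averaged over tumors, this level was 7.11 at 3-6 h and 6.72 at 24 h in vehicle tumors. It was 7.26 and 6.75 in untreated tumors, and 7.16 and 7.12 in treated tumors. The part of these markers in the results was not tested. Immune markers (4 of 9 tested) summed to 148 to 227 FPKM in vehicle and 130 to 210 in treated tumors at 24 h, and endothelial markers (4 of 7) to 32.1 to 68.5 and 27.5 to 93.7. Fibroblast and pericyte markers (6 of 7 tested) summed to 483 to 596 in vehicle and 480 to 971 in treated tumors. These 3 lists held 0 called genes at either time, their ranges overlapped, and their part in the results was not tested.

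The values of 100 mg/kg, whose tumors were compared with the same vehicle tumors, are given beside those of 200 mg/kg without a test of their own. Drug volume differed, with 10 mL/kg at 100 mg/kg. The late effect at 100 and 200 mg/kg was -0.68 and -1.26 for CCN1, -0.79 and -1.44 for CCN2, -0.46 and -0.74 for TEAD4, -1.21 and -1.44 for ACAT2, and 1.01 and 1.27 for GSN. The early effect at 100 and 200 mg/kg was -0.78 and -0.72 for CCN1, -0.63 and -0.63 for CCN2, -0.62 and -0.53 for AMOTL2, -0.18 and -0.07 for ACAT2, and 0.09 and -0.14 for GSN. For CCN1 and CCN2 the late minus early difference at 100 mg/kg was 0.09 and -0.16. Over the 67 genes with a difference below 0 at 200 mg/kg, the median late effect was -0.43 at 100 mg/kg and -0.75 at 200 mg/kg, and over the 63 above 0 it was 0.52 and 0.73. These genes were chosen by their 200 mg/kg values, and the vehicle tumors are shared. The medians therefore can show neither a gradient with dose nor a repeat of the result.

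The count of called differences rested on single tumors. It was 600 without replicate 2 of the 200 mg/kg group at 24 h, the tumor that lay closest to vehicle for CCN1, GSN, RRM2 and CCND2, and 7, 13 and 27 without vehicle replicates 2, 3 and 1 at 24 h. Without replicates 1, 3, 4 and 5 of the treated group at 24 h it was 14, 10, 48 and 53. Of the 130 genes, 6 stayed called in each of the 29 fits, ACAT2, TMEM97 and GSN and, chosen here after their values were seen, PGM1 (-0.44), S100A6 (0.77) and SSC5D (0.91), and 57 stayed called in at least 20. Of the named genes, the call was kept in 19 of the 29 fits for CCND2, 15 for NINL, 14 for SPON2, 13 for SAA2 and VPS52, 12 for ACTN1 and MCM10, and 11 for TAGLN. It was kept in 10 for RTF1, 9 for KRT34 and ITGA3, 8 for H3C12, PCLO and FDPS, 7 for AMY2B, 6 for H2AC16 and PAFAH2, and 5 for KRT6A, HECW1, MGST3 and ENO1. Leaving FDPS and MCM10 aside, the highest adjusted p of these genes, between 0.0861 and 0.131 by limma, came without replicate 1 of the 200 mg/kg group or without vehicle replicate 1, 2 or 3 at 24 h. With untreated in place of vehicle tumors, 92 genes were called (56 above 0), 28 of them among the 130. With cage group 5 alone as the treated tumors at 3-6 h, 7 genes were called, and with cage group 4 alone 123.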

How the data were processed

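Tumor RNA was prepared with KAPA RNA HyperPrep, followed by enrichment of target sequences with KAPA HyperCap probes. Capture by probes also sets the level of a gene, so genes were compared only between libraries. The authors deposited 1 FPKM value per gene and tumor. The submitters' processing notes name STAR and GRCh38, and the quantification tool and the treatment of mouse reads are not given in the sources used here. As FPKM hold no counts, count tests and sampling intervals were not possible.

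Of 20555 entries, 316 repeated a gene ID and were dropped, keeping 20239 genes, and 32 blank cells were read as 0. Starts in the table are counted from 0 and were written here counted from 1. Groups came from the labels, with 1 coefficient per cage group. limma 3.58.1 in R 4.3.3 (lmFit, contrasts.fit, eBayes with trend and robust, statmod 1.5.0) was run on log2(FPKM + 1) for genes that reached 1 FPKM in 4 or more of the 29 libraries, with Benjamini-Hochberg adjustment over all genes tested. Contrasts gave the late and early effect, their difference, and the change of vehicle and of treated tumors between studies. The fit was tested on simulated data. The members and gene lists were chosen with earlier results of these data known. The genes named by rule were the 12 highest and 12 lowest called differences, genes called at 3-6 h or at both times, all TEAD factors, co-activators and YAP/TAZ targets, and up to 3 called members of each other list. Other genes, among them MCM10, FDPS, TM7SF2, FST and the 4 genes of G2/M, were named after their values were seen. Values of 100 mg/kg came from a fit of all libraries in which 10000 or more genes reached 1 FPKM. Other pseudocounts, filters, normalizations, sets of libraries, controls and single cage groups were tried, and each of the 29 libraries was left out in turn. Promoter windows came from RefSeq (GRCh38.p14), which held 9989 of the 12412 genes tested. Python 3.11.15 was used for tables and figures.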

Additional observations from a re-analysis of the deposited data

Results flagged for a closer look

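Single tumors stood apart from their group by Dixon's test in 14 of 112 groups tested (28 genes in 4 groups). Independent, normally distributed values would give about 1 in 20. These genes were chosen from the same data and share their tumors, and the groups at 3-6 h pool 2 cage groups. The count therefore cannot be read against that share. At 24 h with 200 mg/kg, the lowest tumor was 6.55 FPKM for CCND2 (next 16.8), 1.66 for H3C12 (next 8.28), 41.0 for SAA2 (next 123) and 5.74 for SPON2 (next 12.8). At 24 h with vehicle, the lowest tumor was 196 FPKM for CCN1 (next 263), and the highest was 2.31 for HECW1 (next 0.85), 4.29 for PCLO (next 1.12) and 4.71 for SPON2 (next 3.69). At 3-6 h with 200 mg/kg, the lowest tumor was 384 FPKM for SAA1 (next 838), 63.8 for SAA2 (next 154) and 6.58 for H3C12 (next 13.1), and the highest was 31.7 for CARNS1 (next 21.2). At 3-6 h with vehicle, the lowest tumor was 0.99 FPKM for ANXA9 (next 2.27) and 2.49 for SPON2 (next 5.74).

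The effect of 200 mg/kg differed between 24 h and 3-6 h, by the limma contrast of the difference itself, in 130 genes, of which 40 are named by rule. Among genes of the pathway, the cytoskeleton and matrix, the late minus early difference was -0.62 for TEAD4, -0.51 for WWC1, -0.43 for ACTN1, -0.74 for TAGLN, -1.02 for THBS1, -0.44 for ITGA3 and -1.20 for FBN2. Among genes of replication and division it was -0.81 for MCM2, -1.15 for RRM2, -1.02 for UHRF1, -1.36 for CENPM, -1.24 for MAD2L1, -1.95 for H3C12 and -1.29 for H2AC16. Among genes of lipid synthesis and glycolysis it was -1.37 for ACAT2, -0.79 for MVD, -0.73 for CYP51A1, -1.21 for TMEM97, -0.52 for ACLY, -0.82 for FASN and -0.40 for ENO1. Among the other genes below 0 it was -2.56 for SAA1, -2.85 for SAA2, -2.08 for KRT34, -1.20 for KRT6A and -1.21 for RTF1. Above 0 it was 1.94 for CCND2, 1.84 for HECW1, 1.84 for CA11, 1.77 for PAFAH2, 1.60 for PCLO, 1.47 for KLHL4, 1.42 for AMY2B, 1.41 for GSN, 1.40 for SPON2, 1.34 for NINL, 1.30 for ANXA9, 1.27 for CARNS1, 0.67 for MGST3 and 0.53 for VPS52. A further 5 of the 130, named after their values were seen, had -0.99 (MCM10), -1.02 (FDPS), -0.44 (PGM1), 0.77 (S100A6) and 0.91 (SSC5D).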

How the results depend on the processing

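Reads per library are unknown, and the 24 h groups hold 4 and 5 tumors. Of 12412 genes, 779 were called at 24 h, 4 at 3-6 h and 130 in the late minus early effect. In the fit of all 94 libraries, which includes the 3 shallow ones, limma called 0 genes in each, with 591, 174 and 353 at an unadjusted p below 0.05. The cause was not tested. When 1 library was left out, the counts ranged from 262 to 1418 at 24 h, from 0 to 9 at 3-6 h and from 7 to 600 in the difference. At 3-6 h, 1 gene was called with log2(FPKM + 0.1), 1 without a filter, 1 without trend and robust and 1 against vehicle cage group 2 alone, 2 with quantile normalization, 7 with 200 mg/kg cage group 5 alone, 9 in the fit of all libraries with at least 10000 genes and 11 against untreated tumors. It was 0 with cage group 4 alone and against vehicle cage group 3 alone (593 and 1063 genes at an unadjusted p below 0.05). In the difference, 55 genes were called without a filter, 64 without trend and robust, 224 in the fit of all libraries with at least 10000 genes, 7 with 200 mg/kg cage group 5 alone and 21 against vehicle cage group 3 alone. Under the other settings tried the 3 counts were within 1.5 times of these. The late minus early difference of AMOTL2 turned to -0.061 with cage group 4 alone, and the effect of RAB6A at 24 h to 0.12 against untreated tumors, and neither was called. No paired analysis was possible because replicate numbers only name the mice and each mouse gave 1 tumor.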
